A study of Mus musculus with 6 samples.

Results

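The constitutive proteasome genes are the genes for the standard subunits of the 26S proteasome and for 3 chaperones that share their symbols. They were taken as every row of the deposited table whose symbol was Psma, Psmb, Psmc or Psmd followed by a number, with at least 30 counts over the 6 libraries. Psmb8, Psmb9, Psmb10 and Psmb11, which belong to the specialised immune and thymic forms, were left out by name. Of 39 rows with such a symbol, 35 were members, of 56691 rows in all, and all 35 passed the filter on low counts that left 14113 genes to test. The rule itself used no difference between the groups, but it was set with earlier results of these data known.

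Gene expression was measured by RNA sequencing of mouse bone marrow-derived macrophages (BMDMs), which were induced from bone marrow cells with M-CSF, the growth factor of the macrophage lineage, and were sorted once they had been co-cultured with cancer cells of the line mEC25. In the 3 contact libraries the macrophages had been cultured together with the cancer cells, and in the 3 transwell libraries the 2 kinds of cell shared a culture without contact, as a porous insert allows. All 6 libraries share the M-CSF induction and the co-culture, while genotype, strain and co-culture time are unnamed in the labels. Whether the replicates of a group were separate cultures or separate animals is not stated, and p-values therefore cover only the spread between these libraries, which may be technical.

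The proteasome is the main protease for proteins tagged with ubiquitin. Its barrel-shaped core, the 20S particle, is built of outer rings of alpha subunits, which gate the entry, and inner rings of beta subunits, of which Psmb5, Psmb6 and Psmb7 carry the active sites. A cap, the 19S particle, holds a ring of ATPases that unfold the substrate and a set of non-ATPase subunits that bind and remove ubiquitin. In cells exposed to interferon the subunits Psmb8, Psmb9 and Psmb10 take the place of the 3 active beta subunits in newly made cores. Macrophages use the peptides that both forms release for presentation on MHC class I.

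Library totals lay between 18173192 and 22563835 counts. Defining macrophage markers were present in every library, with a summed level of 14322 to 16284 FPKM (reads scaled to exonic length and library total) over 9 genes in contact and 15883 to 16932 FPKM in transwell libraries. Lyz2 alone made up most of that sum (mean 12185 and 13306 FPKM), and single markers moved in opposite directions: 5 of 9 fell in edgeR, among them Adgre1 (-1.20) and Fcgr1 (-1.91), and 3 rose, among them Cd14 (1.49). Epithelial markers differed between the groups: all 12 of 14 that could be tested rose (edgeR), and their summed level was 925 to 1632 FPKM in contact against 4.38 to 5.03 FPKM in transwell libraries. Fibroblast markers stood at 10.1 to 24.2 against 3.31 to 7.84 FPKM over 7 genes, neutrophil markers at 683 to 983 against 456 to 1061 FPKM over 4, and T cell markers at 3.83 to 5.90 against 1.78 to 2.14 FPKM over 4. Of the neutrophil markers Mpo rose (2.61 on the log2 scale, means 21.4 and 3.21 FPKM) and S100a8 and S100a9 were not called, and the T cell sum was nearly all Cd4 (means 4.72 and 1.76 FPKM), with Cd3e, Cd3d and Cd8a at group means of at most 0.10 FPKM. B cell markers reached at most 0.72 FPKM in any library and dendritic cell markers at most 0.21 FPKM. The part of these other cell types in the members' differences was not tested. In such bulk samples fewer cells of a type and less RNA per cell cannot be told apart.

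Proteasome genes differed little between contact and transwell macrophages. None of the 35 changed by 2-fold, where 14.9% of all tested genes did. In edgeR's quasi-likelihood test with Benjamini-Hochberg adjustment over 14113 genes, 7 members fell, 1 rose and 27 were not called, with 14 of the 35 at an unadjusted p under 0.05. Of all genes tested 37.5% were called, 21.4% higher and 16.1% lower, so the members' share of 22.9% over both directions was below the background. By direction this held for the 1 higher, while the 7 lower were a somewhat larger share than among all tested genes. Of the 6507 tested genes with a mean of at least 5 FPKM 40.0% were called, 1591 lower and 1009 higher. Against these 6507 genes the members' share was smaller in both directions. The median absolute log2 change was 0.12 for the members and 0.28 for all tested genes, or 0.21 for the 6507 tested genes with a mean of at least 5 FPKM. For 34 members, all but the barely expressed Psma8, the 95% intervals of the log2 change lay between -0.60 and 0.39, which leaves out a 2-fold change in either direction.

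The fitted changes leaned below 0, by an amount that the scaling between libraries sets. With TMM scaling (trimmed mean of M-values) the members' median log2 change was -0.11 against 0.03 for all tested genes. Of 35 fitted values 30 were below 0, where 47.3% of all tested genes were. The 6507 tested genes with a mean of at least 5 FPKM leaned below 0 as well, 56.1% of them, with a median of -0.046. TMM lowers contact relative to transwell by 0.12 on the log2 scale compared with the deposited FPKM. With library totals only, the members' median was 0.0039 and that of all genes 0.14, and 17 of 35 members were below 0, with 3 lower and 1 higher called. Over all genes that scaling gave 3945 higher and 1450 lower, against 3016 and 2270 with TMM and 2390 and 3418 after quantile normalization of log2(FPKM + 1) in limma. Relative to the median of all genes the members thus stood at -0.14 in both fits, but at 0.017 after quantile normalization. Groups did not overlap for 14 members lower and 1 higher in contact on TMM-scaled values, 42.9% of members. Of all tested genes 50.4% did not overlap, 22.7% lower and 27.7% higher. Of the 6507 genes with a mean of at least 5 FPKM 53.3% did not, 2096 of them lower and 1373 higher. On the deposited FPKM 6 members were lower without overlap, 4 were higher and 25 overlapped, where 51.2% of all tested genes did not overlap, 15.3% lower and 35.8% higher.

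**Figure D1:**
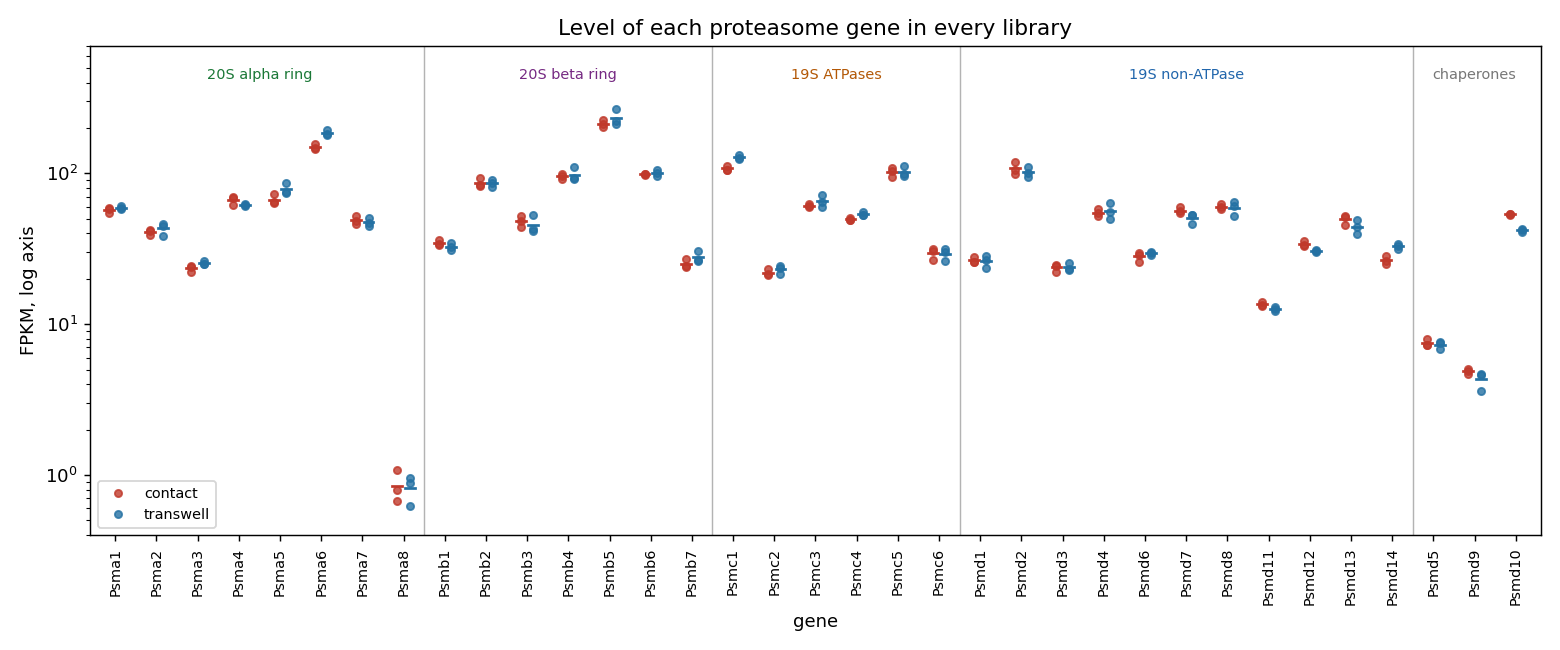
Level of each of the 35 genes in FPKM (log axis) in the 3 contact and 3 transwell libraries, with short lines at the group means, ordered by place in the particle. Points of both groups lie close together for most genes, and Psma8 lies near 1 FPKM. Without overlap 6 genes are lower in contact, among them Psma6, Psmc1 and Psmd14, and 4 are higher, among them Psmd10.

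Levels of the members themselves spanned a wide range. Without Psma8, mean levels over all libraries ran from 4.60 FPKM for Psmd9 to 224 FPKM for Psmb5, with a median of 47.9 FPKM over 34 genes. Among the 31 structural subunits the lowest was Psmd11 at 13.1 FPKM, so the highest stood 17.1-fold above the lowest. FPKM divides by the exonic length in the deposited table, which adds up the exons of all transcripts of a gene and differs from the length of its main transcript. Divided instead by the length of the main GENCODE M21 transcript, a scale added after the values were seen, the 31 subunits spanned 7.96-fold, from 29.4 for Psmd11 to 234 for Psmb6. Across the 34 genes, log2 exonic length and log2 FPKM had a Pearson correlation of -0.83, and length is itself the divisor of FPKM.

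In the alpha ring, 3 of 8 genes fell and 5 were not called, with a median log2 change of -0.18. Psma6 (ENSMUSG00000021024, chromosome 12, 55384222 to 55418454 on GRCm38) stood at 148, 157 and 145 FPKM in contact replicates 1 to 3 and at 194, 179 and 183 FPKM in transwell replicates 1 to 3. All contact libraries lay below all transwell libraries. Its log2 change was -0.42 ± 0.07 (SE, n = 3 per group, edgeR adjusted p = 0.00109), which means that it fell by 25.3%.

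Psma5 (chromosome 3, 108256926 to 108279974) was at 63.9, 72.5 and 64.6 FPKM in contact and at 85.9, 74.4 and 74.8 FPKM in transwell libraries. The groups were apart by little, contact replicate 2 reaching close to transwell replicates 2 and 3. The log2 change was -0.34 ± 0.09 (edgeR adjusted p = 0.0125). Of all 50-base stretches in Psma5 transcripts, 49.96% also occur in transcripts of other genes, among them the pseudogene Psma5-ps, listed with 90 to 128 counts per library, and Gm12989, with 119 to 160, against at least 1786 for Psma5. The assignment of shared reads is not documented in the labels, so the value of Psma5 is uncertain.

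Psma3 (chromosome 12, 70974621 to 70996347) was at 22.1, 24.4 and 23.9 FPKM in contact and 24.98, 25.1 and 26.4 FPKM in transwell libraries, with a log2 change of -0.24 ± 0.07 (edgeR adjusted p = 0.0284). Contact values were lower throughout, but the nearest values of the groups, 24.4 and 24.98 FPKM, almost met. Psma3 shares 15.4% of its 50-base stretches with other genes, of which Gm13835 alone was listed with 839 to 1040 counts per library, so its value is uncertain too.

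The other alpha subunits did not pass the test. Psma1, Psma2, Psma4 and Psma7 had log2 changes of -0.16, -0.20, -0.0032 and -0.073, with edgeR adjusted p-values of 0.0951, 0.0947, 0.979 and 0.502. Psma8, an alpha subunit made mainly in the testis, stood at 0.80, 0.67 and 1.07 FPKM in contact and 0.62, 0.95 and 0.89 FPKM in transwell libraries, from 29 to 59 counts each. Its groups overlapped, and its 95% interval of -0.70 to 0.58 on the log2 scale is too wide to tell a small change at this depth.

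In the beta ring 1 of 7 genes fell, with a median log2 change of -0.15. Psmb7 (chromosome 2, 38588036 to 38644087), the subunit with trypsin-like activity, stood at 23.9, 27.2 and 24.4 FPKM in contact and 30.4, 26.8 and 26.2 FPKM in transwell libraries. On this scale the groups overlapped, because contact replicate 2 exceeded transwell replicates 2 and 3, while on TMM-scaled values they did not. Its log2 change was -0.26 ± 0.09 (edgeR adjusted p = 0.0412). Psmb7 overlaps the gene Nek6 in the annotation and shares 9.26% of its 50-base stretches with it, so its value is uncertain.

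Psmb5 (ENSMUSG00000022193, chromosome 14, 54614119 to 54618022), which carries the chymotrypsin-like site that drugs such as bortezomib block, had the highest level of the members. It stood at 211, 226 and 204 FPKM in contact and at 268, 212 and 221 FPKM in transwell libraries, so transwell replicate 1 was above the other 5 libraries, which overlapped. On TMM-scaled values contact was lower without overlap, by little. The log2 change of -0.24 ± 0.10 was not called (edgeR adjusted p = 0.0788). Of its 50-base stretches 54.1% occur in other genes. Of the 3 sharing most, Gm3375 had 49 to 102 counts per library and Mir686 and Psmb5-ps at most 1, against at least 3461 for Psmb5. How shared reads were assigned is not documented, so the value of Psmb5 is uncertain as well.

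Psmb6 (ENSMUSG00000018286, chromosome 11, 70525367 to 70527858), the caspase-like subunit, differed least of the 3, at 97.3, 99.0 and 99.5 FPKM in contact and 105, 95.8 and 101 FPKM in transwell libraries. The groups overlapped in FPKM and were apart by little on TMM-scaled values, and the log2 change of -0.15 was not called (edgeR adjusted p = 0.127, 95% interval -0.30 to 0.008). The structural beta subunits Psmb1, Psmb2, Psmb3 and Psmb4, which carry no active site, had log2 changes from -0.15 for Psmb4 to -0.02 for Psmb1, and none was called.

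**Figure D2:**
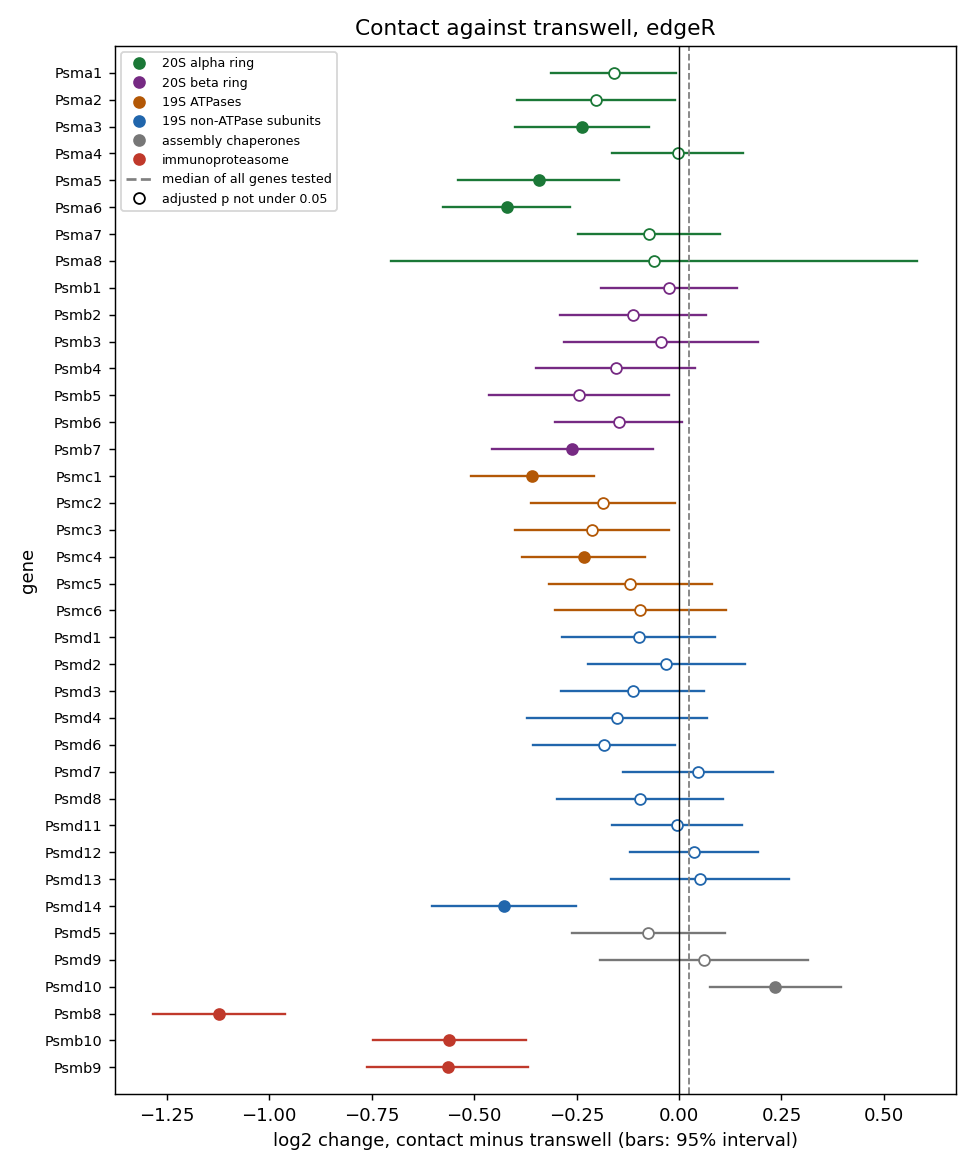
Log2 change, contact minus transwell, for the 35 genes and the 3 interferon-inducible subunits, with 95% intervals from edgeR; filled points have an adjusted p under 0.05 and the dashed line is the median of all tested genes (0.03). Members lie between -0.43 and 0.23, and Psmb8, Psmb9 and Psmb10 between -1.12 and -0.56.

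Of the 6 ATPases, which form the base ring of the cap, 2 fell and 4 were not called, with a median log2 change of -0.20. Psmc1 (ENSMUSG00000021178, chromosome 12, 100110154 to 100123405), whose product helps to open the gate of the core, stood at 106, 113 and 106 FPKM in contact and 133, 124 and 127 FPKM in transwell libraries. All contact values were below all transwell values. It fell by 21.96%, a log2 change of -0.36 ± 0.07 (edgeR adjusted p = 0.00229). Psmc1 shares 14.1% of its 50-base stretches with other genes, among them Gm9575, listed with 29 to 38 counts per library against at least 4353 for Psmc1. The assignment of such reads is not documented.

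Psmc4 (chromosome 7, 28041707 to 28050101) was at 48.7, 50.8 and 49.1 FPKM in contact and 55.1, 52.7 and 53.3 FPKM in transwell libraries. The groups did not overlap, and each varied by little around its mean (SD 1.09 and 1.21 FPKM). The log2 change was -0.23 ± 0.07 (edgeR adjusted p = 0.0207). Psmc2, Psmc3, Psmc5 and Psmc6 had changes between -0.21 (Psmc3) and -0.09 (Psmc6) and were not called.

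Of the 11 non-ATPase subunits of the cap 1 fell and 10 were not called, with a median log2 change of -0.10. The one that fell was Psmd14 (ENSMUSG00000026914, chromosome 2, 61711694 to 61800376), the metalloprotease that cuts ubiquitin chains off substrates as they enter. It stood at 25.1, 26.1 and 28.3 FPKM in contact and 31.3, 33.0 and 34.2 FPKM in transwell libraries. Groups did not overlap, and with a log2 change of -0.43 ± 0.08 (edgeR adjusted p = 0.00207) it fell by 25.6%, the largest fitted change among the members. Psmd7, which pairs with Psmd14 in the lid of the cap, was at 55.9, 59.7 and 54.5 FPKM in contact and 53.1, 46.2 and 52.6 FPKM in transwell libraries. Its contact values were the higher ones on the deposited FPKM, as were those of Psmd11 and Psmd12. On TMM-scaled values the groups overlapped for each of these genes. The log2 change of Psmd7 was 0.05 (edgeR adjusted p = 0.703).

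The other 9 were not called either. The large scaffold subunits Psmd1 and Psmd2 had log2 changes of -0.10 and -0.03, and the ubiquitin receptor Psmd4 one of -0.15. The lid subunits Psmd3, Psmd6, Psmd8, Psmd11, Psmd12 and Psmd13 lay between -0.18 (Psmd6, edgeR adjusted p = 0.0927) and 0.05 (Psmd13, adjusted p = 0.717).

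The 3 chaperones, which guide assembly of the cap and are not in the finished particle, did not move together. Psmd10 (ENSMUSG00000031429, chromosome X, 140948429 to 140956728), known as gankyrin and as an oncoprotein of liver cancer, stood at 52.9, 54.0 and 53.7 FPKM in contact and 42.9, 40.9 and 42.1 FPKM in transwell libraries. It was the one member that rose, without overlap on either scale, by 17.7% (log2 change 0.23 ± 0.07, edgeR adjusted p = 0.0272). Psmd5 was at 7.29, 7.97 and 7.31 against 7.63, 6.85 and 7.45 FPKM, and Psmd9 at 4.92, 5.05 and 4.69 against 4.63, 3.62 and 4.70 FPKM. Both overlapped between groups and were not called (log2 changes -0.07 and 0.06), and both were below every structural subunit but Psma8. Psmd9 shares 24.9% of its 50-base stretches with other genes. Among them is Reps1, listed with 577 to 1013 counts per library against at least 477 for Psmd9, so the value of Psmd9 is uncertain. Reps1 itself rose (0.34, edgeR adjusted p = 0.00921).

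Psma6, Psmc1 and Psmd14 were called lower in all 17 fits made, the main one and 16 alternatives. The other calls ended in some fits. With library totals only, the calls of Psma3, Psma5, Psmb7 and Psmc4 ended (log2 changes -0.12, -0.23, -0.14 and -0.12), as they did in limma without added scaling, and those of Psma3 and Psmb7 ended also after quantile normalization and among genes with a mean of at least 5 FPKM. The call of Psma5 ended without contact replicate 1 (adjusted p = 0.0586), and that of Psma3 without contact replicate 1 (0.128), contact replicate 2 (0.0566) or transwell replicate 3 (0.125). The call of Psmc4 ended without contact replicate 1 (0.0826), 2 (0.0512) or 3 (0.0550) or transwell replicate 3 (0.0761). That of Psmb7 ended without contact replicate 1 (0.147) or 3 (0.107) or transwell replicate 1 (0.0976) or 3 (0.0667). In the fits without 1 library that ended these calls, the log2 changes still lay between -0.31 and -0.18. Psmd10 was called in 10 of the 17 fits, and among the fits that ended its call were those without contact replicate 1 (0.0778), 2 (0.0703) or 3 (0.0721) or transwell replicate 2 (0.156) or 3 (0.113), with log2 changes from 0.18 to 0.24, and with no filter on low counts (0.20, adjusted p = 0.166).

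Promoters of the members were searched for a pair of motifs, CCAAT, the box bound by the factor NF-Y, and TGACNNNGC, the core of the antioxidant response element bound by Nfe2l1 and Nfe2l2. The windows reach from 250 bases before to 50 after the start site in RefSeq on GRCm38.p6, both strands were read, and 28 of 35 members matched. Psma8, Psmb1, Psmb2, Psmb7, Psmc3, Psmd3 and Psmd7 have no entry. CCAAT was in 11 of 28 members (39.3%), against 41.1% of 27025 genes, and TGACNNNGC in 5 of 28 (17.9%), against 13.99% of genes, and no member held both. Of the 7 called members with an entry, which include Psmd10 that rose, 5 held CCAAT, and of the 21 not called 6 did. The share among all called genes was not counted, and a link between motif and call was not tested. A match is a description of letters and not a binding site.

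The match nearest before the start site is shown in capitals for those 5 called members, with up to 30 bases on each side and none past the start site, read 5′ to 3′ on the gene's strand. They begin at -29 (Psma6, chr12:55384163-55384221), -24 (Psmd10, chrX:140956712-140956765), -139 (Psma3, chr12:70974454-70974518), -175 (Psmc1, chr12:100109997-100110061) and -159 (Psmd14, chr2:61711505-61711569). In the windows of Psmd10 and Psmd14 the box lies on the other strand, so that it reads ATTGG, and the window of Psmd10 holds a further one, at -47, in lower case.
Psma6: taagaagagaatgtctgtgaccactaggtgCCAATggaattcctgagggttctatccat
Psmd10: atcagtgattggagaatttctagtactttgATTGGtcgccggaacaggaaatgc
Psma3: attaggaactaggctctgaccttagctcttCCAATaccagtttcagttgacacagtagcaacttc
Psmc1: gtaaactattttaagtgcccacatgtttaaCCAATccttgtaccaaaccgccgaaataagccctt
Psmd14: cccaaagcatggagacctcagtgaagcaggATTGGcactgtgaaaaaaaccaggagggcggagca

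TGACNNNGC was in none of these 5 and was found in Psmb5, Psmb6, Psmc6, Psmd9 and Psmd12, none of which was called. The 3 matches close to the start site are shown, at -47 in Psmb5 (chr14:54618004-54618072), -9 in Psmb6 (chr11:70525318-70525356) and -31 in Psmd9 (chr5:123228129-123228189). All 3 read in the direction of the gene.
Psmb5: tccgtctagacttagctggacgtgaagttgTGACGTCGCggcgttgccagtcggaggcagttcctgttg
Psmb6: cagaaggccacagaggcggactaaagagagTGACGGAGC
Psmd9: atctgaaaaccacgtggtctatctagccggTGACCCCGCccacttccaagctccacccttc

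Factors that read these motifs were measured too, and their part in the members' levels was not tested. Nfe2l2 was the largest rise among 43 other proteasome and ubiquitin genes, from 50.7 ± 4.60 to 136 ± 5.75 FPKM (SD, n = 3; log2 change 1.31 ± 0.08, edgeR adjusted p = 2.8e-06). Nfe2l1, the factor that raises proteasome genes when proteasome activity is blocked, averaged 39.6 ± 1.79 FPKM in contact and 39.99 ± 1.80 FPKM in transwell libraries, and was not called (-0.13, adjusted p = 0.193). Of the NF-Y subunit genes Nfyb rose (0.45 ± 0.09, adjusted p = 0.0039), and Nfya and Nfyc were not called in edgeR with TMM (0.12 and -0.02), while Nfya was called higher with library totals only and in both limma fits without added scaling.

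The interferon-inducible counterparts fell by more than the members did. Psmb8, Psmb9 and Psmb10 had log2 changes of -1.12 ± 0.07, -0.56 ± 0.09 and -0.56 ± 0.08 (edgeR adjusted p = 3.2e-06, 0.00076 and 0.000571). Exons of Psmb9 overlap those of its neighbour Tap1 in the annotation, and whether the counting used strand is not documented in the labels. The ratio of a constitutive active subunit to its counterpart within a library does not depend on scaling between libraries. The ratio of Psmb5 to Psmb8 on the FPKM scale was 4.91, 5.17 and 4.94 in contact and 2.94, 2.56 and 2.64 in transwell libraries. That of Psmb6 to Psmb9 was 8.10, 8.86 and 9.44 against 6.58, 6.58 and 6.54, and that of Psmb7 to Psmb10 was 0.489, 0.572 and 0.569 against 0.468, 0.453 and 0.401. Contact libraries were above transwell libraries for all 3 pairs, without overlap.

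The mean differences in the log2 ratio were 0.88 for Psmb5 to Psmb8, 0.42 for Psmb6 to Psmb9 and 0.30 for Psmb7 to Psmb10, which is 1.85-fold, 1.34-fold and 1.23-fold. A two-sided exact permutation test gave p = 0.1 for each pair, also after Benjamini-Hochberg adjustment over the 3 pairs, and 0.1 is the smallest p that 3 against 3 libraries can give. The size of a ratio rests on the lengths used: the exonic length of Psmb8 is 3381 bases in the deposited table and its main transcript 1628 bases, while for Psmb5 both are 899 bases. The difference between groups does not rest on them.

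**Figure D3:**
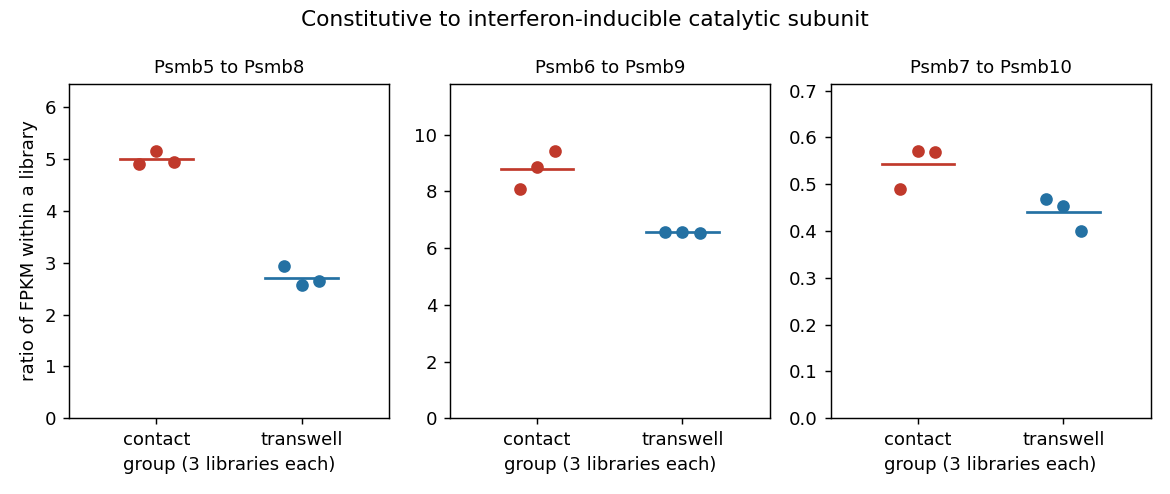
Ratio of FPKM within each library for the 3 pairs of a constitutive active subunit and its interferon-inducible counterpart, with lines at the group means and axes from 0. Contact libraries lie above transwell libraries in each pair, at 4.91 to 5.17 against 2.56 to 2.94 for Psmb5 to Psmb8.

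Over 9 lists of other proteasome and ubiquitin genes, which hold the 3 interferon-inducible subunits, 2 of 43 tested genes rose and 9 fell, with a median log2 change of -0.04 (0.08 with library totals only, where 6 were higher). Among activators and the inhibitor, 2 of 5 fell, the subunits of the interferon-inducible cap Psme1 (-0.52 ± 0.08) and Psme2 (-0.73 ± 0.08), while Psme3, Psme4 and Psmf1 were not called. Of 5 further assembly chaperones 1 fell, Psmg4 (-0.46 ± 0.13, edgeR adjusted p = 0.0201), in 13 of 17 fits. Pomp, which is needed to mature the core, stood at 47.4 ± 2.82 against 48.0 ± 4.25 FPKM (SD, n = 3), with a log2 change of -0.13 (edgeR adjusted p = 0.255). The other cap subunits Adrm1 and Sem1 were not called in edgeR with TMM (-0.13 and 0.21), while Sem1 was called higher in 6 of 17 fits, library totals only and the 3 limma fits among them.

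Of 6 genes for ubiquitin and its activating enzymes 2 fell, the enzyme gene Uba1 (-0.39 ± 0.07) and the ubiquitin gene Ubb (-0.22 ± 0.07, edgeR adjusted p = 0.0266). Uba1 was called in all 17 fits and Ubb in 7, the call of Ubb ending with library totals only (-0.11), in limma and without any 1 library other than transwell replicate 2. None of 4 proteasome-bound deubiquitinases and ligases and none of 5 genes of the p97 complex, which extracts tagged proteins, was called in edgeR with TMM, with 1 and 2 of them at an unadjusted p under 0.05. Of the 17 fits, other ones made calls in these lists. Ube3c was called higher in 4, library totals only among them, Nploc4 higher in 2, both limma, and Faf2 lower in 3, which were DESeq2, edgeR with RLE size factors and limma after quantile normalization.

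The spread between replicates was of the same order as most of these changes, and it was shared by the members. The median coefficient of variation over 34 members was 5.08% in contact and 6.15% in transwell libraries. On TMM-scaled values 26 of 34 members were highest in transwell replicate 1 within their group and 28 of 34 lowest in transwell replicate 2, with median deviations from the group mean of 0.086 and -0.087 on the log2 scale. Of 6507 genes with a mean of at least 5 FPKM, 50.3% were highest in transwell replicate 1. Their median deviations went the same way by less, 0.031 in transwell replicate 1 and -0.025 in transwell replicate 2. Their share lowest in transwell replicate 2 was not counted. Among contact libraries 25 of 34 members were highest in replicate 2, with a median deviation of 0.047, against 33.1% of those 6507 genes.

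Contact replicate 2 was also the contact library with the highest summed epithelial markers (1632 FPKM, against 925 and 1079), and transwell replicate 1 the transwell library with the highest summed neutrophil markers (1061 FPKM, against 456 and 477). Among contact libraries the neutrophil sum was highest in replicate 1 (983 FPKM), where the members' median deviation was -0.014. The part of these marker levels in the members' spread was not tested. Without transwell replicate 1 the members' median log2 change was -0.06, with 6 lower and 1 higher. Without transwell replicate 2 it was -0.20, with 11 lower and none higher in edgeR, where Psma2 (-0.31), Psmb5 (-0.34), Psmc2 (-0.27) and Psmc3 (-0.31) were called as well. Without contact replicate 1 only Psma6, Psmc1 and Psmd14 were called, and without transwell replicate 3 only these and Psma5.

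**Figure D4:**
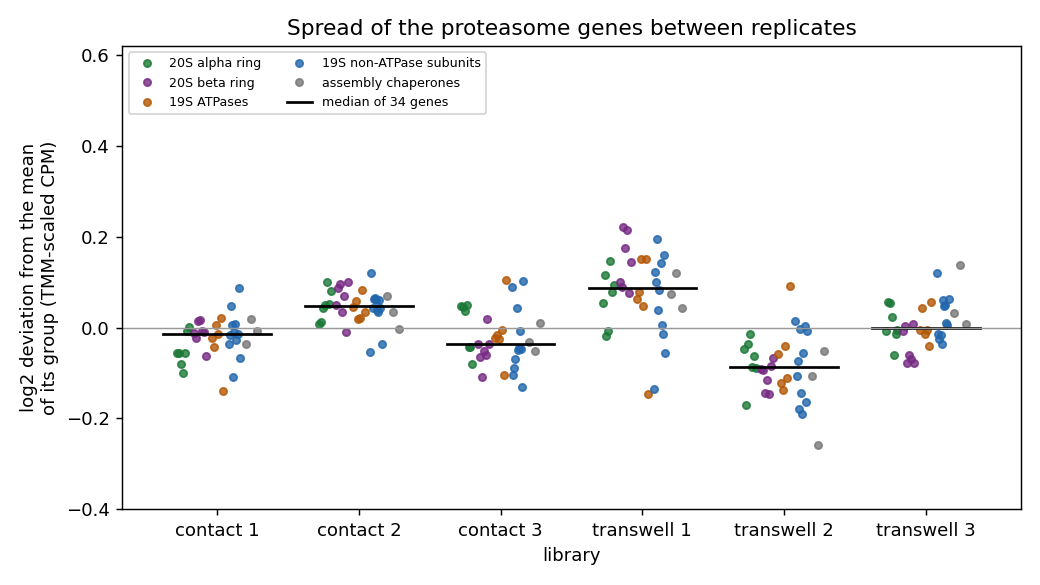
Deviation of each of 34 genes (without Psma8) from the mean of its group in every library, as log2 of TMM-scaled CPM, coloured by place in the particle, with black lines at the medians. Genes shift together by library, up in transwell replicate 1 (median 0.086) and contact replicate 2 (0.047) and down in transwell replicate 2 (-0.087).

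**Figure D5:**
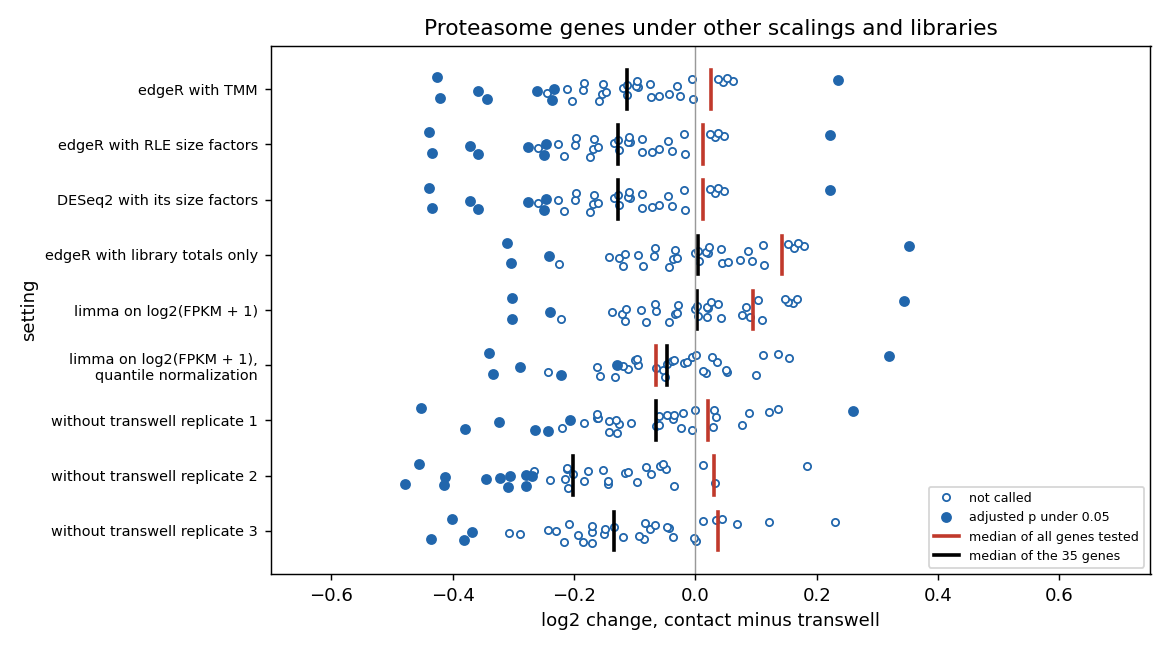
Log2 change, contact minus transwell, of the 35 genes under 9 settings, filled where the adjusted p is under 0.05, with black lines at their median and red lines at the median of all tested genes. The members' median moves from -0.11 to 0.0039 with library totals only and to -0.20 without transwell replicate 2.

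The members together held 0.473 ± 0.018% of all reads in the contact libraries, against 0.480 ± 0.026% in the transwell ones (SD, n = 3). Their summed level was 1942, 2071 and 1920 FPKM in contact and 2185, 1936 and 2023 FPKM in transwell libraries, so the groups overlapped. The genes lie on 16 chromosomes, and all are annotated as protein-coding. Log2 exonic length and log2 change had a Pearson correlation of 0.28 over 34 members, with -0.045 over the 6507 genes.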

How the data were processed

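The authors deposited raw read counts and FPKM per Ensembl gene for each of 6 libraries, per the file headers, with replicates not pooled. Of values with counts above 100, 99.9% of deposited FPKM lay within 1% of the value computed from count, exonic length and library total. Builds named in the submitters' processing notes are GRCm38 and mm10, and no aligner, counter or strand setting is named in the sources used here. Groups and replicate numbers come from the sample titles, and gene positions from GENCODE M21, matched by gene ID.

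Counts were filtered with filterByExpr (minimum count 10), scaled with TMM and compared by edgeR's quasi-likelihood test, two-sided, with Benjamini-Hochberg adjustment over 14113 genes and a threshold of 0.05 (edgeR 4.0.16, limma 3.58.1, DESeq2 1.42.0, R 4.3.3). The standard error is the absolute log2 change over the square root of the F statistic. The test was tried on simulated counts with changes larger than any fitted for a member, so the trial does not cover changes of the members' size. Alternatives were other scalings, filters, pseudocounts of 1 and 0.1, limma, DESeq2, a replicate block, fits without epithelial markers and mitochondrial genes, and each library left out.

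Every member is named. Values per library are given for Psmb5, Psmb6, Psmb7, the called members, the chaperones and the highest and lowest member. Psmd7 was added to these after its values were seen. Of other lists at most the 2 largest called rises and 2 largest called falls are named, and Psmb8, Psmb9, Psmb10, Nfe2l1, Nfe2l2 and Pomp always. The other uncalled genes of those lists were named after their values were seen. Paaf1 was not analysed here. One of the other lists is not reported here on its own. Members and lists were chosen with earlier results of these data known. Shared sequence was counted as 50-base stretches of GENCODE M21 transcripts on either strand. Of the uncalled members, Psma4, Psmb3 and Psmd2 shared 14.3%, 17.8% and 17.8% of theirs with other genes, so the same limit holds for them. The main transcript is the one tagged as APPRIS principal, or else one with a CCDS tag. Figures were drawn with matplotlib 3.10.9.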

Additional observations from a re-analysis of the deposited data

How the results depend on the processing

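The number of members called lower, 7, was 3 with library totals only and in limma on log2(FPKM + 1) or log2(FPKM + 0.1), and 3 to 11 with 1 library left out. The number called higher, 1, was 0 with no filter on low counts and with a replicate block, and 0 to 1 with 1 library left out. The replicate block left 6 lower, where Psmb7 (adjusted p = 0.057) and Psmd10 (0.0511) were no longer called. Same-numbered libraries did not deviate together (correlations -0.083, -0.445 and 0.056 over genes). The labels do not say whether the numbers pair the libraries, and with 3 libraries a group these correlations cannot exclude it. Contact replicate 1 correlated better with transwell replicate 2 (0.283) than with its own number. The block cannot move the mean differences of the ratios of active subunits, since each number holds 1 library a group. The members' median log2 change was 0.0039 with library totals only, 0.0028 in limma with a pseudocount of 1 and 0.0029 with 0.1, -0.047 after quantile normalization and -0.053 among genes with a mean of at least 5 FPKM, and -0.20 to -0.064 with 1 library left out. The other lists together had 6 genes higher with library totals only, 4 after quantile normalization, 7 in limma with either pseudocount and 4 at a mean of at least 5 FPKM, in place of 2, and 2 to 3 with 1 library left out. Their median was 0.076 with library totals only, 0.078 in limma with a pseudocount of 1, 0.085 with 0.1 and 0.023 at a mean of at least 5 FPKM. The causes were not tested.

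Changes of uncalled members crossed 0. With library totals only, in limma with a pseudocount of 1 and in limma with 0.1, in this order, they were 0.11, 0.11 and 0.11 for Psma4, 0.044, 0.042 and 0.043 for Psma7, 0.053, 0.020 and 0.038 for Psma8, 0.093, 0.090 and 0.093 for Psmb1, 0.0052, 0.0040 and 0.0041 for Psmb2. They were 0.074, 0.077 and 0.078 for Psmb3, 0.021, 0.020 and 0.021 for Psmc6, 0.017, 0.019 and 0.019 for Psmd1, 0.11, 0.10 and 0.11 for Psmd11. They were 0.087, 0.084 and 0.085 for Psmd2, 0.0039, 0.0028 and 0.0029 for Psmd3, 0.042, 0.037 and 0.041 for Psmd5, 0.022, 0.026 and 0.026 for Psmd8. After quantile normalization they were 0.10 for Psma4, 0.018 for Psma7, 0.052 for Psmb1, 0.012 for Psmb2, 0.051 for Psmb3, 0.036 for Psmd2, 0.028 for Psmd8, -0.0063 for Psmd9, 0.00068 for Psmd11. Among genes with a mean of at least 5 FPKM they were 0.061 for Psma4, 0.041 for Psmb1, 0.022 for Psmb3, 0.035 for Psmd2, 0.059 for Psmd11. With 1 library left out they ranged from -0.036 to 0.047 for Psma4, -0.27 to 0.086 for Psma8, -0.097 to 0.029 for Psmb1, -0.14 to 0.077 for Psmb3, -0.11 to 0.034 for Psmd2, -0.049 to 0.089 for Psmd7, -0.082 to 0.12 for Psmd9, -0.058 to 0.012 for Psmd11, -0.054 to 0.14 for Psmd13. No called member changed direction in any of the 16 alternatives. With 3 libraries a group and median coefficients of variation of 5.08% and 6.15%, changes of this size lie close to the spread between replicates.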
